A study of Saccharomyces cerevisiae with 4 samples.

Results

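Ribosome assembly factors of the large (60S) subunit are the proteins that fold, cleave, modify and export the precursor of the large subunit without staying in the finished ribosome. The 56 genes described here were taken by name from a list of such factors in the budding yeast Saccharomyces cerevisiae. No measured value was used to pick them, but earlier results of these data were known when the list was chosen. All 56 have a row among the 6212 rows of the deposited table, and 46 were measured on all 4 arrays. Expression was measured on 4 spotted 2-colour arrays, each giving the ratio of 2 RNA samples from the strain labelled DBY4741, grown at 28 °C in rich glucose medium.

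The first comparison set reg1 cells given 16 mM KOH for 10 min, which brings the medium to about pH 8, against reg1 cells given 16 mM KCl for 10 min in medium of about pH 5.5. Both sides of that comparison carry the reg1::KanMX deletion, so it holds no cell with an intact REG1. The second comparison set untreated reg1::KanMX cells against untreated wild-type cells. REG1 encodes the subunit that directs the protein phosphatase Glc7 to its targets in glucose repression. Each comparison has 2 arrays, experiments 1 and 2, with the dyes swapped between them. The labels do not say whether the experiments came from separate cultures, and if they did not, the p-values reflect technical spread alone. In such bulk RNA, a change in the share of cells that express a gene and a change in RNA per cell cannot be told apart.

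Assembly of the large subunit starts in the nucleolus, where RNA polymerase I makes a long precursor RNA and early factors bind it with the first ribosomal proteins. The particle then passes through the nucleoplasm, loses its internal spacer, is exported, and sheds its last factors in the cytoplasm. In yeast the genes of this pathway are known to be expressed together and to respond to growth conditions. The text follows this order of roles.

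Values are log2 ratios, taken as KOH over KCl and as reg1 over wild type. The direction of the second comparison was read from the deleted gene. REG1 had -1.10 and -0.96 on the 2 arrays, a mean of -1.03 ± 0.10 (SD, n = 2), and fell in reg1 cells (limma, adjusted p = 0.0313). For a deleted gene this decrease was modest, 2.04-fold, with rank 48 from the lowest of the 4765 rows tested. REG1 has no value on the KOH arrays, and there the direction rests on the sample titles, which name KOH first, and is likely rather than settled. If those ratios ran the other way, each KOH value, rank and count given here would turn its direction. The columns of the second comparison are displaced against the row names in 2794 rows, YKL011C to YPR204W, which hold 28 of the 56 genes. Over those rows, the number of arrays with a value in the reg1 and KOH columns correlated at 0.042 as deposited and at 0.753 when the reg1 columns were read 2 rows further down. The reg1 values there were therefore read 2 rows down. Rows YAL067C to YBR047W, with none of the 56 genes, were left out.

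After KOH, most genes for assembling the large subunit were lower than after KCl, many of them by a large factor. Of the 47 genes with a value on both KOH arrays, 42 fell, 2 rose and 3 did not pass (limma, adjusted p under 0.05 over all rows). With the sign turned, 42 would be higher and 2 lower. Of all 4584 rows tested, 32.7% fell and 29.1% rose. The 47 genes had a median log2 ratio of -1.89, against -0.09 over all rows tested. On both arrays 36 were lower by at least 2-fold, against 13.4% of all rows, and 2 were higher by as much, against 14.9% of all rows. A decrease of at least 4-fold on each array was measured for 17 genes (36.2%, against 2.31% of all rows), and for 5 of these it was at least 8-fold on each. The share of all rows at 8-fold was not counted.

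**Figure D1:**
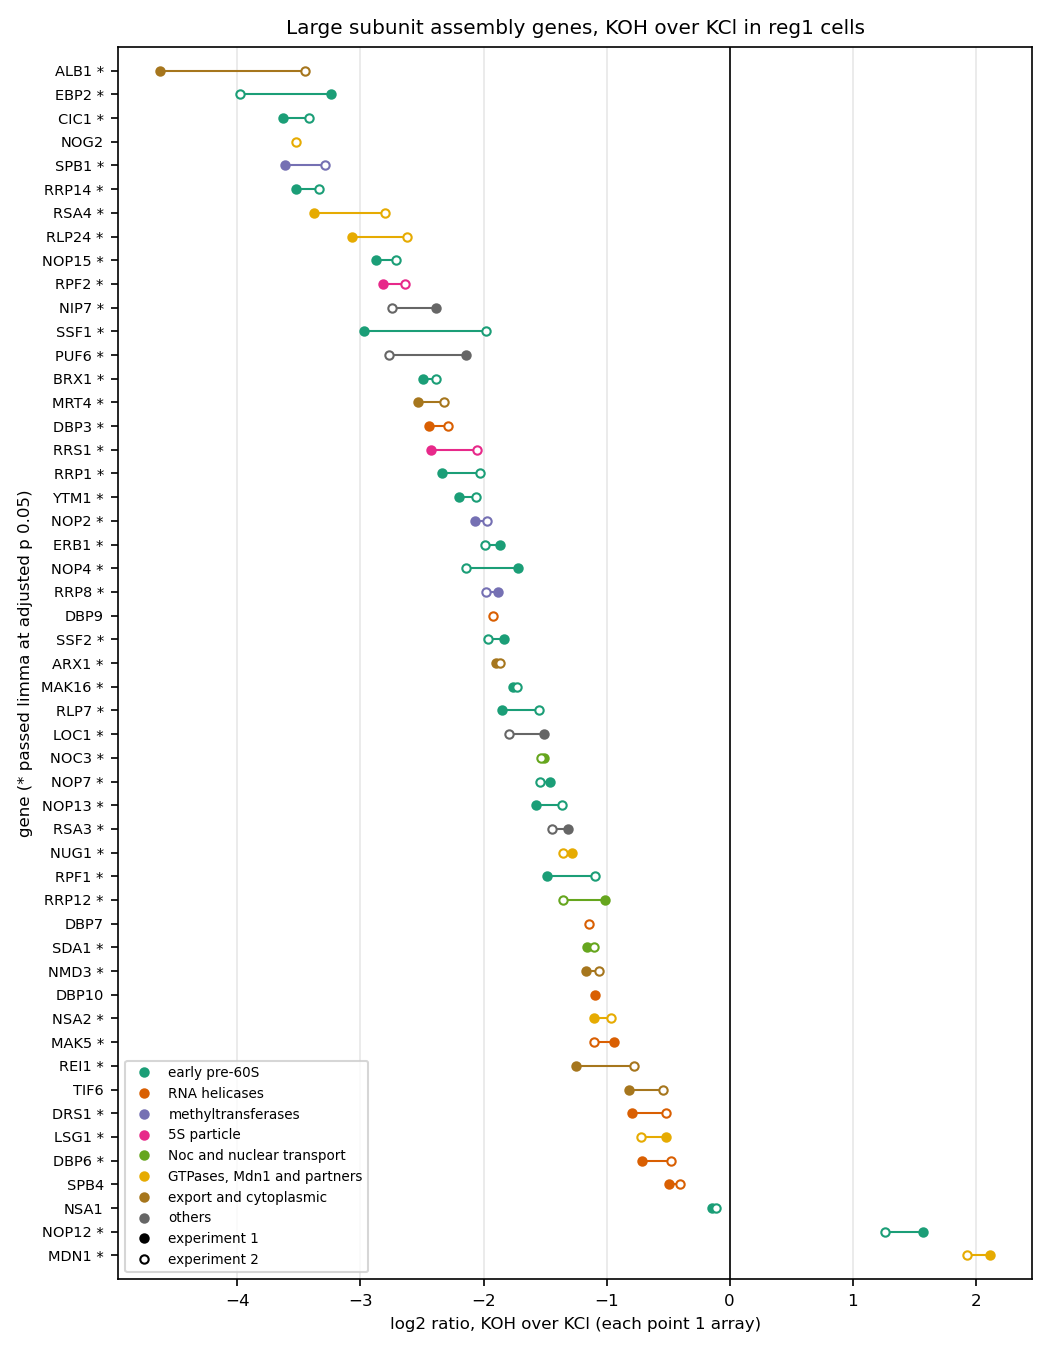
Log2 ratios of KOH over KCl in reg1 cells (x axis) for the 51 assembly genes with a value on at least 1 array (y axis, 1 gene a line, coloured by role). Filled points are experiment 1, open points experiment 2, and a line joins the 2 arrays. From ALB1 at -4.63 and -3.45 to SPB4 at -0.49 and -0.40, genes lie left of 0, NSA1 is close to 0, and NOP12 and MDN1 are the only genes right of 0.

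The spread between the 2 KOH arrays was small beside these ratios. The median SD of the 47 genes was 0.14, against 0.13 over all rows. In reg1 over wild type the median SD was larger, 0.23 for the assembly genes and 0.23 over all rows. The fit shared 1 estimate of the spread between the 2 comparisons. The 2 KOH arrays correlated at r = 0.960 across the 47 genes, which are not independent replicates, and at r = 0.955 over all rows. In all, 45 of the 47 genes were below 0 on both arrays, as were 49.5% of all rows.

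The early factors act on the nucleolar particle, and 16 of 18 measured ones fell after KOH. EBP2, a nucleolar protein needed for precursor processing, had -3.24 and -3.98 on the 2 arrays, 12.2-fold lower on average (-3.61 ± 0.52, limma adjusted p = 1.87e-04). Its partner BRX1 had -2.49 and -2.39 (-2.44 ± 0.07). For both genes the 2 arrays differed by far less than the distance of either value from 0.

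CIC1, NOP15 and RLP7 encode proteins that bind the internal transcribed spacer between the large-subunit RNAs. CIC1 had -3.63 and -3.42, an 11.5-fold decrease (limma adjusted p = 1.35e-04). NOP15 had -2.87 and -2.71, and RLP7, a relative of ribosomal protein gene RPL7, had -1.85 and -1.55. All 3 fell, CIC1 by the most on either array. The NOP7, ERB1 and YTM1 proteins form a complex on the same particle. YTM1 had -2.20 and -2.06, ERB1 had -1.87 and -1.99, and NOP7 had -1.46 and -1.54. All 3 fell, and on each array NOP7 was the least reduced of them.

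RRP14, whose protein joins early particles with Ssf1, had -3.52 and -3.34, a 10.8-fold decrease (limma adjusted p = 2.70e-04). SSF1 and SSF2 are duplicated genes of very similar sequence, so cross-hybridisation between their spots is possible and was not tested. SSF1 had -2.97 and -1.98, and SSF2 had -1.83 and -1.96. SSF1 was the lower of the copies on experiment 1, and on experiment 2 they lay close together. The difference between them was not tested.

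The RRP1, MAK16, RPF1 and NSA1 proteins bind early particles as a module, and their genes did not move alike. RRP1 had -2.34 and -2.03, MAK16 had -1.76 and -1.73, and RPF1 had -1.48 and -1.09, and all 3 fell. NSA1 had -0.14 and -0.11, a mean of -0.12 ± 0.02 with a 95% interval of -0.47 to 0.22, and did not pass (limma adjusted p = 0.470). This interval lies above the means of the other 3 genes.

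NOP4, NOP12 and NOP13 encode nucleolar RNA-binding proteins. NOP4 had -1.72 and -2.14 and fell, as did NOP13 with -1.57 and -1.36. NOP12 had 1.57 and 1.26, a 2.67-fold increase (1.42 ± 0.22, limma adjusted p = 0.00111). It was thus above 0 on both arrays, where its neighbours in the table RPS15 (-1.65 and -1.60) and NGL1 (-0.68 and -0.70) were below 0. NOP16 had no value on any array.

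RNA helicases of the DEAD-box family unwind and remodel the precursor RNA. Of 5 measured on both KOH arrays, 4 fell, with a median of -0.66, and only DBP3 was 2-fold or more lower on both. DBP3 had -2.44 and -2.29 (limma adjusted p = 2.10e-04). MAK5 had -0.94 and -1.10, DRS1 had -0.79 and -0.52, and DBP6 had -0.71 and -0.48. SPB4 had -0.49 and -0.40 and did not pass (limma adjusted p = 0.106). DBP9 (-1.92) and DBP7 (-1.14) had a value on experiment 2 only and DBP10 (-1.09) on experiment 1 only, so they were not tested, and HAS1 had none. Whether helicase genes differ from the other roles was not tested.

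The 3 genes whose enzymes methylate the large-subunit RNA all fell. SPB1 had -3.61 and -3.29, a 10.9-fold decrease (limma adjusted p = 1.35e-04). NOP2 had -2.07 and -1.97, and RRP8 had -1.88 and -1.98. Rpf2 and Rrs1 bring the 5S particle into the subunit, and both of their genes fell. RPF2 had -2.82 and -2.64, and RRS1 had -2.43 and -2.05. The highest value of these 5 genes on either array was the -1.88 of RRP8.

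Noc proteins accompany the particle from the nucleolus to the nucleoplasm. NOC3 had -1.51 and -1.53 and fell. MAK21, which encodes Noc1, had no value on the KOH arrays, and NOC2 had none on any array. RRP12, an export factor gene, had -1.01 and -1.35, and SDA1, a nuclear factor gene, had -1.16 and -1.10. Both fell, by little more than 2-fold.

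The GTPases and the ATPase Mdn1 drive later steps in the nucleus and cytoplasm. RSA4, whose protein is the grip by which Mdn1 pulls factors off the particle, had -3.38 and -2.80, an 8.51-fold decrease (limma adjusted p = 3.22e-04). MDN1 itself, listed as REA1 in the reference, had 2.12 and 1.93, a 4.07-fold increase (2.02 ± 0.13, limma adjusted p = 3.30e-04). This pair of partner genes thus lay on opposite sides of 0 on both arrays. The rows next to MDN1 in the table, SEN2 (-1.04 and -0.84) and REX3 (0.07 and 0.42), did not reach its values.

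RLP24, whose protein holds the place of ribosomal protein L24, had -3.07 and -2.62, a decrease with a limma adjusted p of 1.95e-04. NSA2 had -1.10 and -0.96 and the nuclear GTPase gene NUG1 -1.28 and -1.35, and both fell. LSG1, a cytoplasmic GTPase gene, had -0.52 and -0.72 and was the weakest decrease of this group (limma adjusted p = 0.0375). Its decrease was lost under several settings, among them each array centred on its median (limma adjusted p = 0.0554). NOG2 had -3.52 on experiment 2 only, and NOG1 had no KOH value.

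Among genes of export and the last cytoplasmic steps, 5 of 6 fell. ALB1, whose protein travels with the export factor Arx1, had -4.63 and -3.45, a 16.4-fold decrease (-4.04 ± 0.83, limma adjusted p = 3.20e-04). It was the third lowest of the 4584 rows (the third highest with the sign turned), and its 2 arrays differed more than those of any other of the 47 genes. ARX1 had -1.90 and -1.87, less than ALB1 on each array. REI1, which acts on both proteins in the cytoplasm, had -1.25 and -0.78 and also fell.

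MRT4, whose protein holds the place of the stalk protein P0, had -2.53 and -2.32. NMD3, the adaptor gene for the exportin Crm1, had -1.17 and -1.06. TIF6, which keeps free large subunits from joining small ones, had -0.82 and -0.54 and did not pass (limma adjusted p = 0.0653). With the spread taken from the KOH arrays alone it did pass (limma adjusted p = 0.00961). The remaining 4 genes all fell. NIP7 had -2.39 and -2.74 (limma adjusted p = 5.31e-04), PUF6 had -2.14 and -2.77, LOC1 had -1.51 and -1.79, and RSA3 had -1.31 and -1.44. Puf6 and Loc1 are RNA-binding proteins also known from messenger RNA localisation, and Rsa3 works with the helicase Dbp6.

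The same arrays gave values for other genes of ribosome synthesis. Of 41 further large-subunit assembly genes, 34 were tested after KOH, and 27 fell, 1 rose and 6 did not pass, with a median of -1.06. NOP53 (-2.73 and -2.72), the Rix1-complex gene IPI3 (-2.82 and -2.62) and ECM1 (-2.80 and -2.55) were the lowest. CRM1, which encodes the exportin that carries the particle through the nuclear pore, had 2.39 and 1.75 and was the one that rose (limma adjusted p = 7.19e-04).

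Of 41 tested small subunit processome genes, 36 fell and 1 rose, with a median of -1.70. Of 69 large subunit ribosomal protein genes 68 fell, with a median of -1.67, and of 49 small subunit ones all 49 fell, with a median of -1.70. For RNA polymerase I, 8 of 11 tested genes fell, with a median of -1.13. These medians are a description, and no difference between the groups was tested. Means of the 47 assembly genes ran from -4.04 to 2.02, and those of the large subunit ribosomal protein genes from -2.98 to -0.42. Of the 4584 rows tested, the 100 lowest after KOH would be the 100 highest with the sign turned. Among these 100 were 17 of the 47 assembly genes (36.2% of them), 14 small subunit processome genes (34.1% of those tested) and 15 large subunit ribosomal protein genes (21.7%). They also held 3 of the further large-subunit assembly genes (8.8%), 3 small subunit ribosomal protein genes (6.1%) and 2 RNA polymerase I genes (18.2%).

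**Figure D2:**
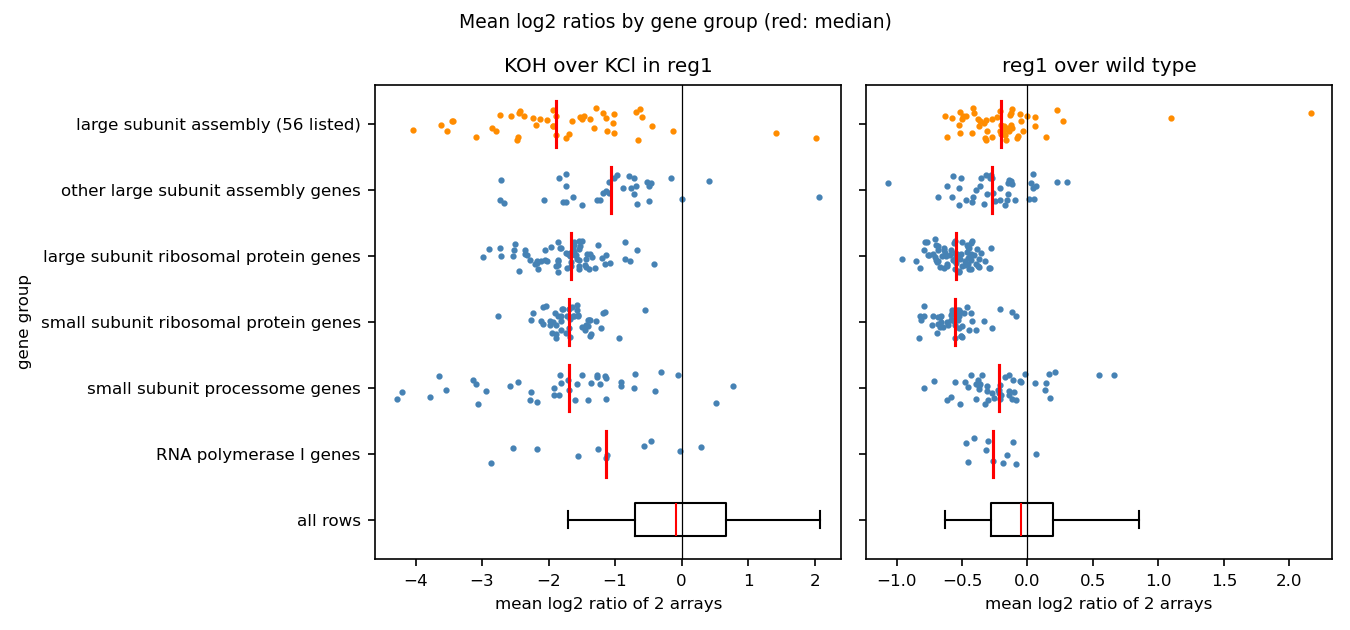
Mean log2 ratios of 2 arrays (x axes) by gene group (y axis), for KOH over KCl in reg1 cells on the left and reg1 over wild type on the right. Each point is a gene, red lines are medians, and all rows are shown as a box of quartiles with whiskers to the 5th and 95th percentiles. After KOH the assembly genes (orange) have a median of -1.89 and a wide range, and in reg1 over wild type a median of -0.20 with NOP12 and NSA1 to the right.

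With 1 KOH array left out, 34 (without experiment 1) and 37 (without experiment 2) of the 47 genes were called lower. The spread in those fits comes from the reg1 over wild-type arrays, and the lone KOH array is assumed to vary like them. The 9 genes whose decrease was lost in at least 1 other setting were DBP6, DRS1, LSG1, MAK5, NOP13, NSA2, REI1, RPF1 and RSA3, while the increases of NOP12 and MDN1 held in every other setting run for them. With the arrays scaled to the same spread, the decreases were smaller, 6.59-fold for ALB1, 5.46-fold for EBP2, 5.21-fold for CIC1 and 5.03-fold for SPB1.

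In untreated reg1 cells 2 of the assembly genes, NOP12 and NSA1, were higher than in wild type, and no decrease passed the test. Of 52 genes with a value on both arrays, 2 rose and none fell (limma, adjusted p under 0.05), against 5.2% of 4765 rows that rose and 1.95% that fell. At an unadjusted limma p under 0.05, 8 were lower (15.4%, against 12.7% of all rows) and 2 higher. The share of all rows higher at that p was not counted. None was 2-fold or more lower on both arrays, as 0.714% of all rows were. With a dye term in the fit 3 genes (RRP1, RSA4 and NOG2) were called lower, and so were 7.3% of all rows. With the arrays scaled to the same spread 3 others (DBP6, MAK5 and RRS1) were called lower, and so were 5.35% of all rows. Over all rows, 93 fell and 248 rose, against 255 and 363 with the arrays scaled.

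NOP12 had 2.04 and 2.29 in reg1 over wild type, a 4.48-fold increase (2.16 ± 0.17, limma adjusted p = 0.00289), or 9.19-fold with the arrays scaled to the same spread. Of the 52 assembly genes, 2 (NOP12 and NSA1) were 2-fold or more higher on both of these arrays, as were 2.9% of all rows. NOP12 lies in the displaced rows. At its own name as deposited the 2 values are -0.66 and -0.43, which realigned belong to RPP2A. In the 201 rows around NOP12, the numbers of arrays with a value in the reg1 and KOH columns correlated at 0.687 when read 2 rows down, the highest of the 9 displacements tried.

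NSA1 had 1.09 and 1.10, a 2.13-fold increase (limma adjusted p = 0.0114), and lies in rows that need no displacement. With the spread taken from the reg1 arrays alone its adjusted p was 0.0546. Its neighbours in the table, CUE3 (0.18 and -0.07) and TAF6 (-0.38 and -0.09), were near 0. The partner genes of its module did not pass, with RRP1 at -0.36 and -0.90, RPF1 at -0.39 and 0.03, and MAK16 at -0.44 and 0.28.

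**Figure D3:**
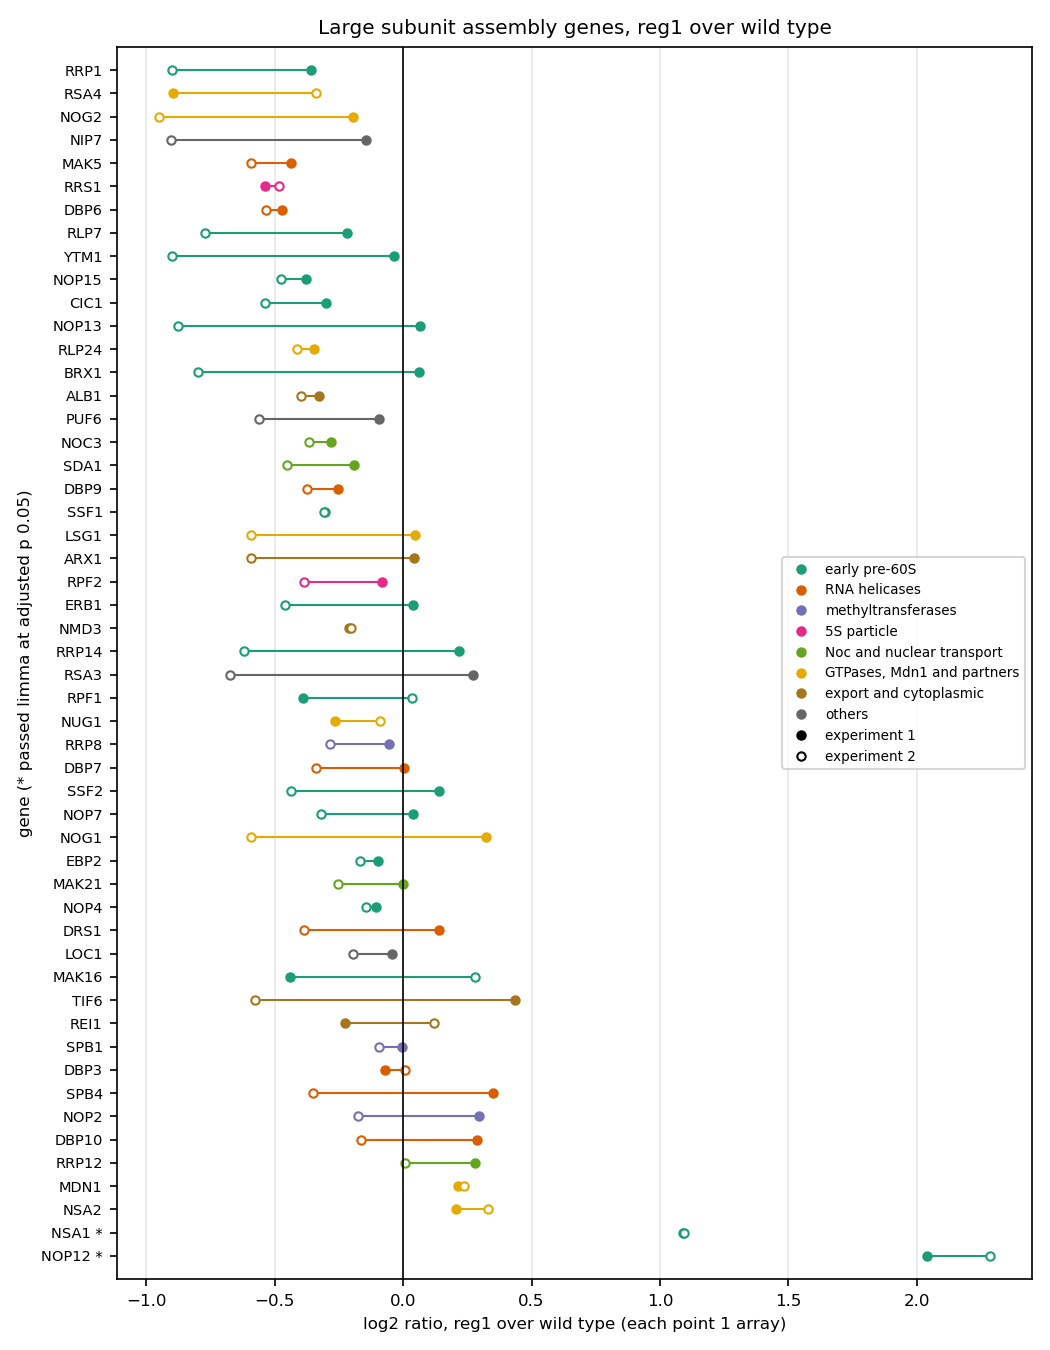
Log2 ratios of untreated reg1 over wild-type cells (x axis) for the 52 assembly genes with a value (y axis, 1 gene a line, coloured by role). Filled points are experiment 1, open points experiment 2. NOP12 (2.04 and 2.29) and NSA1 (1.09 and 1.10) stand apart at the right, and for most other genes the open point lies left of the filled one.

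The lowest means in reg1 cells were those of RRP1, RSA4, NOG2, NIP7 and MAK5, and none of these 5 passed. RSA4 had -0.90 and -0.34 (-0.62 ± 0.39, limma adjusted p = 0.160), NOG2 had -0.20 and -0.95, NIP7 had -0.14 and -0.90, and MAK5 had -0.43 and -0.59. The adjusted p of RRP1 was 0.114 (-0.63 ± 0.38). After NOP12 and NSA1, the highest were NSA2 (0.21 and 0.33), MDN1 (0.21 and 0.24) and RRP12 (0.28 and 0.01), which did not pass either. MDN1, which rose after KOH, thus had a 95% interval of -0.13 to 0.59 in reg1 over wild type.

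The 2 reg1 arrays did not place these genes alike. Their median was -0.06 on experiment 1, where reg1 RNA was in Cy5, and -0.38 on experiment 2, where it was in Cy3. Over all rows the medians were -0.02 and -0.07. Experiment 2 gave the lower value for 40 of 52 genes (76.9%), as it did for 55.4% of all rows. The arrays gave opposite signs for 20 of the 52 genes, most widely for TIF6 (0.43 and -0.58), RSA3 (0.27 and -0.67) and NOP13 (0.06 and -0.88). The share of all rows with opposite signs was not counted, so this number is not set against a background. The 2 arrays correlated at r = 0.647 across the 52 genes and at r = 0.591 over all rows. Leaving out NOP12 and NSA1, the 2 highest, narrows the range, and r was then 0.035 across the other 50 genes. The part of the dyes in this was not tested. The median of the 52 means was -0.20, against -0.05 over all rows, and 27 genes (51.9%) were below 0 on both arrays, against 34.5% of all rows.

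Of 40 further large-subunit assembly genes tested in reg1 over wild type, only ECM1 passed, with -1.20 and -0.94 (limma adjusted p = 0.0190), and it was lower. Its row lies within 20 rows of a change of register. Their median was -0.27. The medians were -0.22 for 47 small subunit processome genes, -0.26 for 11 RNA polymerase I genes, and -0.54 and -0.56 for large and small subunit ribosomal protein genes, of which 5 of 71 and 6 of 49 fell. None of the small subunit processome and RNA polymerase I genes passed in either direction.

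**Figure D4:**
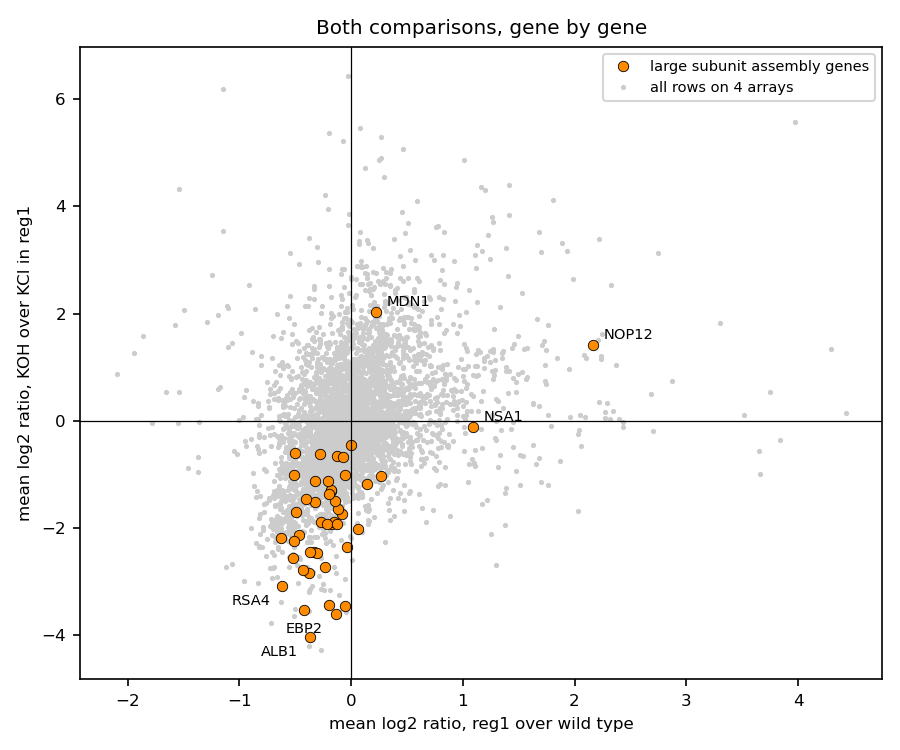
Mean log2 ratio of reg1 over wild type (x axis) against that of KOH over KCl in reg1 cells (y axis), for rows on all 4 arrays. Orange points are the 46 assembly genes and grey points all rows. Most assembly genes lie below 0 on the y axis and near 0 on the x axis, with ALB1 lowest. MDN1 is high on the y axis only, NSA1 on the x axis only and NOP12 on both.

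Side by side, NOP12 was higher in both comparisons, with means of 1.42 after KOH and 2.16 in reg1 over wild type. NSA1 had -0.12 after KOH and 1.09 in reg1 over wild type, and MDN1 had 2.02 and 0.23. ALB1, lowest after KOH, had -0.33 and -0.40 in reg1 over wild type and did not pass (limma adjusted p = 0.481). EBP2 had -0.10 and -0.17 there, and SPB1 had -0.01 and -0.10. ALB1, EBP2 and SPB1 were among the genes more than 10-fold lower after KOH, and none of the 3 passed in reg1 over wild type. Whether wild-type cells respond to KOH in the same way is not analysed here.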

How the data were processed

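The table deposited by the authors gives log ratios, 1 for each row on each array, read here as log2. Per the labels, spots under 120 µm in diameter, or under 100 units in Cy3 and Cy5, were left out by the authors. Scanner, background correction, normalization and log base are not given in these sources. The base was read as 2 because the highest value, 9.1, would be too large a ratio as a natural log. Array medians lay between -0.120 and -0.028. Each array measured 4746 to 5190 rows, and the number of arrays limits the precision.

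Row names were matched to symbols by locus tag in a RefSeq table of assembly R64, MDN1 through a synonym. Each comparison's mean was tested against 0, two-sided, with limma 3.58.1 (R 4.3.3), lmFit and eBayes, on all 4 arrays with 1 shared spread (prior degrees of freedom 3.68), over rows on both arrays of the comparison. Benjamini-Hochberg adjustment ran over all rows. Tested on simulated data, the fit recovered 99% of log2 changes of 2 for reg1 over wild type (4765 rows) and 93% for KOH over KCl (4584 rows). It recovered 46% and 35% of changes of 1. The simulation changed 100 rows at each size, far fewer than passed after KOH, and gave both comparisons the same spread. The measured median SD over all rows was 0.23 for reg1 over wild type and 0.13 for KOH over KCl. The recovered shares therefore do not rank the 2 comparisons. Genes, lists and tests were chosen with earlier results of these data known. The rule for values by array took the 10 lowest and 5 highest genes after KOH, the 5 lowest and 5 highest in reg1 cells, and those with the widest spread. Promoter motifs were not analysed here.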

Additional observations from a re-analysis of the deposited data

How the results depend on the processing

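Each count of limma calls was recomputed under 15 other settings, and the counts at 2-fold or more on both arrays under fewer. The settings changed 1 choice each, except the reading as deposited, which also put back the rows left out. Leaving out an array of the other comparison gave the same fit as the comparison's own arrays alone. After KOH, 42 assembly genes fell and 2 rose. In rows YBR048W to YKL010C alone, which hold fewer genes by construction, it was 22 of 24, with 0 higher. With an array left out it was 34 to 44 lower. Over all rows, 1498 fell and 1334 rose, against 723 and 678 in those rows, 557 and 682 with arrays scaled to the same spread, and 566 to 1775 and 664 to 1500 with an array left out. In reg1 over wild type, no assembly gene fell and 2 rose. As deposited, without realignment, it was 2 and 1, both with those rows put back and, a setting added after seeing the data, with them left out, also at 2-fold or more on both arrays, and NOP12 had -0.54 in place of 2.16, since that reading takes the values of another row. With a dye term or with arrays scaled, 3 fell, and 1 rose in rows YBR048W to YKL010C, with the reg1 arrays alone, and without either KOH array. Over all rows, 93 fell and 248 rose, against 36 and 131 in rows YBR048W to YKL010C, 29 and 124 with the reg1 arrays alone, 255 lower with arrays scaled, and 348 and 453 with a dye term. Leaving out an array gave 29 to 45 lower and 124 to 197 higher. The cause of these moves, where the construction does not give it, was not tested. The labels do not say whether experiments of the same number share a batch. The deviations of experiment 1 from 2 correlated at -0.092 between the comparisons. The dye order is opposite in the 2 comparisons, so this value cannot decide whether a batch is shared. With experiment number as a block, 43 assembly genes fell and 2 rose after KOH, and none fell and 2 rose in reg1 over wild type. TIF6 passed under the block (limma adjusted p = 0.0356). In the simulated data, with 2 arrays per comparison, changes of 2-fold were often missed. In the main fit after KOH, the assembly genes nearest to 2-fold, NSA2 (-1.03), MAK5 (-1.02) and REI1 (-1.01), all passed.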
